A study of Mus musculus with 4 samples.

Results

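The ETS factors are transcription factors that share a winged-helix DNA-binding domain, the ETS domain. The 10 members described here are Erg, Fli1, Ets1, Ets2, Elf1, Elf4, Etv5, Etv6, Elk3 and Gabpa, which are ETS genes other than the PU.1 pair Spi1 and Spib. They were found by gene symbol among the 24411 symbols of each of the 4 deposited tables, and all 10 were present. All 10 also passed the filter on low counts, Erg through wildtype library 2 and overexpression-labelled library 1 alone.

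RNA was sequenced from cells sorted by flow cytometry for B220, a B-lineage form of the surface phosphatase CD45, out of the marrow of mouse tibiae and femora. The 4 libraries comprise 2 labelled wildtype and 2 labelled Arid5b overexpression. Arid5b belongs to the ARID family of proteins that bind AT-rich DNA. The labels give no strain, age, sex, transgene construct, promoter or pooling. They do not say whether libraries of a group came from separate mice, so p-values measure only the spread between these libraries. Wildtype library 1 had 24 reads of Xist and 3260 of the Y-linked gene Ddx3y, a male pattern. Wildtype library 2 had 77255 and 1, a female pattern, so these libraries came from different mice and their spread includes sex. The overexpression-labelled libraries had 68540 and 132008 reads of Xist and 0 of Ddx3y.

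ETS proteins bind sites built around the core GGAA, and neighbouring bases and partner proteins decide which member sits where. In blood, ERG and FLI1 maintain stem and megakaryocyte programmes, ETS1 and ELF factors act in mature lymphocytes, and GABPA with its beta subunits serves housekeeping and mitochondrial genes as well as Il7r. In early B cells ERG is known to act upstream of Ebf1 and Pax5 and of the genes for the pre-B receptor and its recombination.

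The promoters below are of the 3 members with the largest rises in overexpression-labelled library 1, so that the ETS core upstream of their RefSeq start sites can be seen. Each is the 250 bases before a RefSeq start site (GRCm38.p6), 5′ to 3′ on the strand of the gene, with every GGAA or its complement TTCC in capitals.
Erg, upstream start, chr16:95586594-95586843, minus strand: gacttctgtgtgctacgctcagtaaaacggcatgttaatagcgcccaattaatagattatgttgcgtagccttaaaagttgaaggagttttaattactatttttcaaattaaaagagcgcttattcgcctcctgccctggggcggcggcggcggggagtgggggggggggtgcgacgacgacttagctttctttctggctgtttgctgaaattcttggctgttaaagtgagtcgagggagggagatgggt
Erg, middle start, chr16:95530366-95530615, minus strand: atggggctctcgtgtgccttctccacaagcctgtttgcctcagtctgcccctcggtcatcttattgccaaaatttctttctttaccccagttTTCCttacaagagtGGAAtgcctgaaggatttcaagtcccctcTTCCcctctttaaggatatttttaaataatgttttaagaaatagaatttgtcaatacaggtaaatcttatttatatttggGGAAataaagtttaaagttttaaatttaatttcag
Erg, downstream start, chr16:95459349-95459598, minus strand: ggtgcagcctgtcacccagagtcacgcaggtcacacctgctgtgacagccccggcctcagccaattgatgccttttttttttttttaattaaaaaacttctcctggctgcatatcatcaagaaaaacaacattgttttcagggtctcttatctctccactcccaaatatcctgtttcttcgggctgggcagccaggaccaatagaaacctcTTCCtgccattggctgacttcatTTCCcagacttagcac
Etv5, upstream start, chr16:22439571-22439820, minus strand: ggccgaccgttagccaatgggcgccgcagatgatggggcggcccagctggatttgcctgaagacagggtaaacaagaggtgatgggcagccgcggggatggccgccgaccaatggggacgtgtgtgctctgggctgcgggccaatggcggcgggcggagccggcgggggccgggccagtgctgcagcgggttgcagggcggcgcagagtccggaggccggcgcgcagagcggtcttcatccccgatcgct
Etv5, downstream start, chr16:22438369-22438618, minus strand: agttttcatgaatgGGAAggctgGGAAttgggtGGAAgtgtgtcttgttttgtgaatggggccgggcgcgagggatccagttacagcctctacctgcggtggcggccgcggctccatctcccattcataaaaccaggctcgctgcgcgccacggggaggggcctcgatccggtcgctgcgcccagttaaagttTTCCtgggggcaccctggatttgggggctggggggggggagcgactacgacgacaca
Gabpa, chr16:84834874-84835123, plus strand: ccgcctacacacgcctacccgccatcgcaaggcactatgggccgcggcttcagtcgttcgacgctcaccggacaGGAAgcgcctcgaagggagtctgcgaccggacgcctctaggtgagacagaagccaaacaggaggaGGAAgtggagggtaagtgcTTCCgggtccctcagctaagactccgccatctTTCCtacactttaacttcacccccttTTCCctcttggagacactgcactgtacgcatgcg

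The upstream start of Erg and that of Etv5 have 0 matches to GGAA on either strand in this window, whereas 93.4% of 32851 mouse promoters of the same length hold at least 1. The middle and downstream starts of Erg hold 4 and 2, the downstream start of Etv5 holds 4, and the Gabpa promoter holds 5. In GENCODE M21 the Gabpa gene begins at 84834925, within this window, and all 5 cores lie beyond that position. The longer form CCGGAAG, which contains the core, is in the Gabpa promoter and in 6.91% of all promoters. Another longer form, CAGGAAG, is in the downstream Erg promoter, in the Gabpa promoter and in 10.8% of all promoters. A match describes these letters only. Among the members, 8 had promoter entries, with 13 start sites in all, of which 10 hold GGAA. The downstream start of Elf1 also has 0 matches. The bases just after the downstream start of Etv5 were not found near the beginning of any GENCODE M21 transcript of Etv5. Gene-level values do not say which start was used.

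The libraries held 14196665 to 20356404 reads assigned to genes, recovered from the deposited values, of which the ribosomal RNA precursor Rn45s took 25.69% to 30.52%. Arid5b (21.6-fold above wildtype) was raised in overexpression-labelled library 1 and not in library 2 (0.863-fold), so library 2 goes against its label and each of them was tested separately against wildtype. The B-cell genes Cd79a, Cd79b, Ebf1, Pax5 and Cd22 had 2147 to 25283 reads in every library. Ptprc, which encodes CD45, had 35704 and 27790 reads in wildtype, 5683 in overexpression-labelled library 1 (difference -2.47, limma adjusted p = 1.16e-09) and 38260 in library 2. The test of a lone library borrows its spread from the wildtype libraries and from limma's prior, so it describes that library and not the genotype. In sorted bulk cells, fewer cells of a type and less RNA per cell cannot be told apart.

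Over the 2 groups, 0 of the 10 ETS members passed the threshold by limma, and 0 of 10 had an unadjusted p under 0.05. Over all 12617 genes tested 0.00% passed, with 280 genes at an unadjusted p under 0.05. Etv5 lay above both wildtype libraries in both overexpression-labelled ones, and Fli1, Ets1 and Elf4 lay below. These 4 of 10 members with groups that do not overlap compare with 42.6% of all genes tested, 19.6% with the overexpression-labelled group above and 23.0% with it below. The median difference of the 10 members was -0.01 on the deposited log2 scale, against -0.08 over all genes. The wildtype mean of Erg was 6.20 ± 0.335 (SD, n = 2). In the overexpression-labelled group the mean was 9.45 ± 4.94 (SD, n = 2), a spread larger than the difference (3.25, SE 2.38, limma adjusted p = 0.726). Without overexpression-labelled library 1 this difference was -0.24, and without library 2 it was 6.74.

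**Figure D1:**
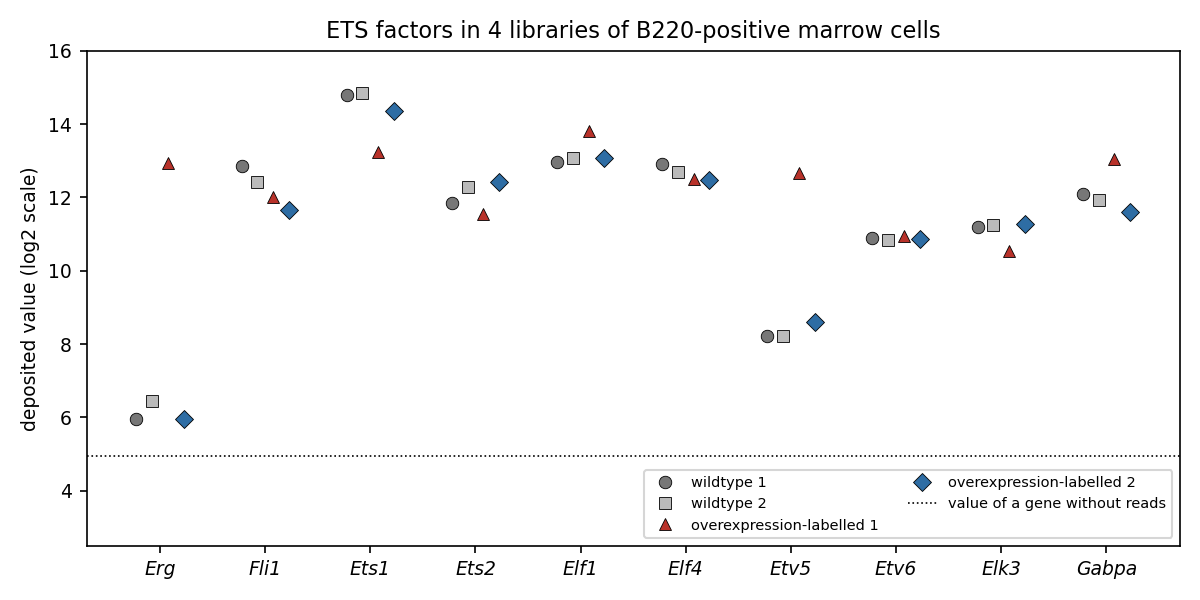
Deposited log2-scale value (vertical axis) of each of the 10 ETS members in the 4 libraries, 1 point per library, with the value of a gene without reads as a dotted line. Erg and Etv5 are at 12.94 and 12.66 in overexpression-labelled library 1 and between 5.96 and 8.60 in the other libraries, while the 4 points of Etv6 lie between 10.85 and 10.94.

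Overexpression-labelled library 1, from here library 1, had 4 members higher (Erg, Etv5, Gabpa and Elf1) and 4 lower (Ets1, Elk3, Fli1 and Ets2), while Elf4 and Etv6 did not pass. Of all genes tested 26.8% were called higher and 34.4% lower in this library, 61.2% in all. The 8 of 10 members called thus stand beside a library in which most genes were called, and their sizes differ widely, from 6.74 for Erg to -1.57 for Ets1. The median over the 10 members was -0.11, against -0.15 over all genes. The counts and medians given below for related genes and markers in library 1 stand beside these same shares and this median of all genes. In overexpression-labelled library 2, from here library 2, Fli1 was lower and the other 9 members did not pass, where 1.66% of all genes were called, 0.769% higher and 0.888% lower. Between the overexpression-labelled libraries 7 members differed, with Erg, Etv5, Gabpa and Elf1 higher in library 1, Ets1, Ets2 and Elk3 lower, and Fli1, Elf4 and Etv6 not called. Of all genes 52.6% differed between these libraries, 22.4% higher and 30.1% lower in library 1.

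Erg, a factor of stem cells, megakaryocytes, endothelium and early lymphoid cells, was close to silent in 3 of the 4 libraries. It had 8 and 13 reads in wildtype, 3319 in overexpression-labelled library 1 and 8 in library 2, or 0.397, 0.916, 217 and 0.393 CPM (counts scaled to the total of reads assigned to genes). Library 1 stands alone, and library 2 lies at the lower wildtype value. The rise in library 1 was 6.74 on the deposited log2 scale (SE 0.327, limma adjusted p = 1.60e-09), the difference ranked 3 from the top among 12617 genes. In normalised reads it was 320.2-fold, with a 95% counting interval of 209 to 518 (exact binomial, counting error only), which is wide because the wildtype reads are few. Between the overexpression-labelled libraries Erg differed by 6.98 (SE 0.425, limma adjusted p = 3.57e-08).

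Erg lies on chromosome 16 from 95359169 to 95586593 on the minus strand (GRCm38, ENSMUSG00000040732.20). The genes whose pattern over the 4 libraries was nearest to that of Erg, by Euclidean distance between centred deposited values among 12616 other genes tested, were Spp1 (0.351), Reln (0.431), Ptgr1 (0.626), Il33 (0.690) and Tnfrsf19 (0.809). Spp1, which encodes osteopontin, had 5 and 11 reads in wildtype, 3319 in library 1 and 13 in library 2. Reln, which encodes the secreted protein reelin, had 40, 35, 7722 and 24 reads in the same order. With 4 libraries, 1 of which stands apart, such closeness describes reads concentrated in that library.

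Markers of cell types other than B cells that are known for Erg gave few reads in every library. The 5 stem cell markers (Hlf, Mecom, Procr, Meis1 and Cd34) summed to 0.262 CPM in library 1, against 1.54 and 1.97 CPM in wildtype and 2.06 CPM in library 2. Procr and Meis1 were at 0 reads in library 1. The 6 endothelial markers summed to 0.720 CPM in library 1 and to 2.51 to 3.52 CPM in the others. Cdh5 and Kdr were at 0 reads in library 1, and Emcn was at 0 in every library. Esam had 8 reads in library 1, against 1 and 4 in wildtype and 0 in library 2, and Tek had 2, against 0, 0 and 1. The 6 megakaryocyte markers summed to 1.51 CPM in library 1 and 1.69 to 3.54 CPM in the others. Pf4, Gp1bb, Ppbp and Treml1 were at 0 reads in library 1 and also in both wildtype libraries. Gp9 had 20 reads in library 1, against 3 and 2 in wildtype and 2 in library 2, while Itga2b had 3, against 31, 28 and 44. Early B-cell genes were, as a sum, highest in library 1. The 12 pro-B markers summed to 4636 CPM there, of which Igll1 gave 2362 CPM, and to 29.4 to 58.4 CPM in the other libraries. The 8 tested had a median difference of 4.74 in library 1, where Kit (-1.80), Flt3 (-2.01) and Dntt (-0.71) were lower. In library 2, where Erg differed by -0.24, their median was -0.98. The part of these early B-cell genes, or of any of the cell types named, in the Erg difference was not tested.

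Fli1, the closest relative of Erg among the members, did not follow it. It had 183 and 138 CPM in wildtype, then 114 CPM in library 1 and 78.7 CPM in library 2, so every overexpression-labelled value lies below both wildtype values. The wildtype libraries themselves differed by 0.43 log2 units. Fli1 was lower by -0.61 in library 1 (SE 0.171, limma adjusted p = 0.00711) and by -0.98 in library 2 (SE 0.177, limma adjusted p = 0.0184), both measured against the same wildtype pair. Between the overexpression-labelled libraries the difference was 0.37 (95% interval -0.07 to 0.81, limma adjusted p = 0.141). The call in library 1 was lost with no filter on low counts (limma adjusted p = 0.276) and with totals without Rn45s (0.0646), and the call in library 2 with no filter (0.438) and on log2 of normalised reads plus 0.5 (0.0650).

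Ets1, a factor of mature lymphocytes that restrains plasma cell formation, was the most abundant member in wildtype. It had 705 and 748 CPM there, 269 CPM in library 1 and 519 CPM in library 2. The wildtype values lie close together, and library 1 is the lowest. Ets1 fell in library 1 by 1.57 on the deposited log2 scale (SE 0.117, limma adjusted p = 1.01e-07), 2.98-fold in normalised reads. In library 2 the difference was -0.47 (SE 0.122, limma adjusted p = 0.0870), which passed with totals without Rn45s (0.0197) and by limma-voom (0.0155). Library 1 was lower than library 2 by -1.11 (SE 0.138, limma adjusted p = 2.55e-05).

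T and NK cells also express Ets1 and Fli1, and 9 of their markers were, as a sum, lower in both overexpression-labelled libraries. These summed to 56.9 and 56.7 CPM in wildtype, 2.68 CPM in library 1, where Cd8a, Nkg7 and Gzma were at 0 reads, and 27.3 CPM in library 2. In library 1, 8 of the 9 fell, and in library 2, 2 of 9. Klrb1c differed by 0.08 in library 1, and Cd3d by 0.11 and Cd8a by 0.46 in library 2. The part of T and NK cells in the Ets1 and Fli1 values was not tested.

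Ets2, which is induced by growth factor signalling, had 89.6 and 124 CPM in wildtype, then 82.6 CPM in library 1 and 136 CPM in library 2. Library 1 is the lowest and library 2 the highest. Ets2 was lower in library 1 by -0.49 (SE 0.179, limma adjusted p = 0.0291), a call that ended with no filter (0.346), on log2 of normalised reads plus 0.5 (0.0564), with library totals (0.112) and with totals without Rn45s (0.164). In library 2 the difference was 0.38 (SE 0.178, limma adjusted p = 0.323), and the libraries differed from each other by -0.87 (limma adjusted p = 0.00339).

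The genes of both relative pairs are neighbours in the genome. Ets2 (chromosome 16, 95702075 to 95721051) begins 115 kb beyond Erg, and Ets1 (chromosome 9, 32636221 to 32757820) begins 93.4 kb beyond Fli1 (32422204 to 32542861), with 0 protein-coding genes between them in GENCODE M21. In library 1 Erg rose while its neighbour Ets2 did not. Gabpa and Etv5 also lie on chromosome 16, which carries 4 of the 10 members.

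**Figure D2:**
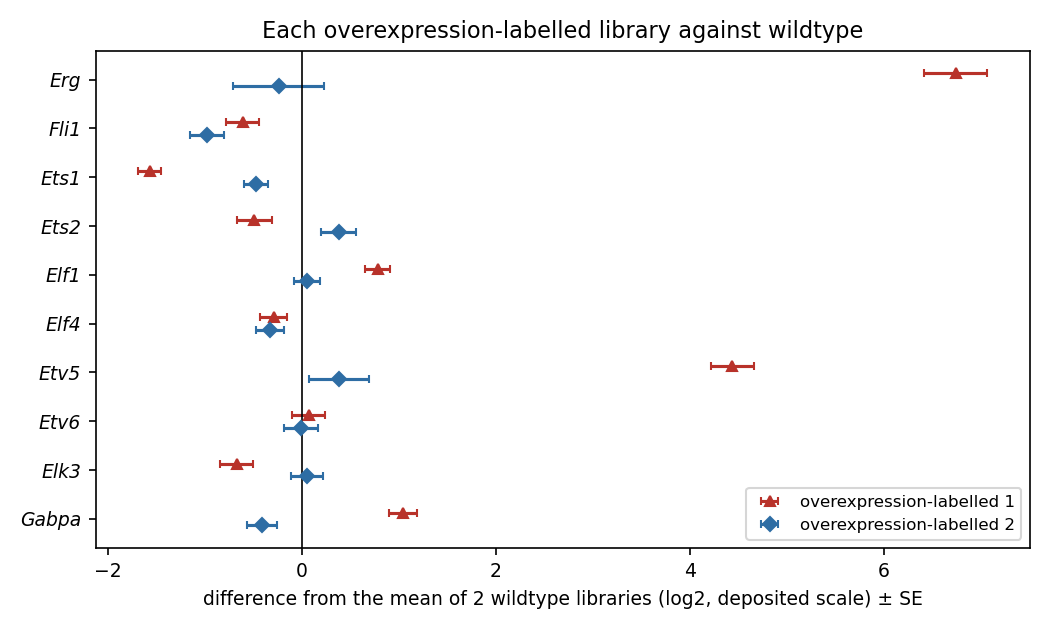
Difference of each overexpression-labelled library from the mean of the 2 wildtype libraries (horizontal axis, deposited log2 scale) for each ETS member, with bars of 1 SE from limma. Erg (6.74) and Etv5 (4.44) stand apart in library 1, and Fli1 is the member lowest in library 2 (-0.98).

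The ELF factors bind lymphoid promoters and enhancers, and Elf1 rose in library 1 while Elf4 did not pass. Elf1 had 197 and 219 CPM in wildtype, then 396 CPM in library 1 and 213 CPM in library 2. Library 1 is above the rest and library 2 lies within the wildtype range. Elf1 rose in library 1 by 0.78 (SE 0.128, limma adjusted p = 0.000164), 1.73-fold in normalised reads, and differed in library 2 by 0.05 (SE 0.135, limma adjusted p = 0.897). With no filter on low counts the adjusted p of Elf1 in library 1 was 0.0685. Its exons share 327 bases (4.85%) on the other strand with Wbp4, which had 806 and 425 reads in wildtype, 372 in library 1 and 552 in library 2.

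Elf4, which is known for holding lymphocytes in quiescence through Klf4 and Klf2, had 190.2 and 168 CPM in wildtype, then 161 CPM in library 1 and 141 CPM in library 2. Both overexpression-labelled values are below both wildtype values, but the differences of -0.29 (95% interval -0.60 to 0.01, limma adjusted p = 0.0886) and -0.33 (-0.64 to -0.01, limma adjusted p = 0.296) did not pass. Elf4 lies on the X chromosome (48411046 to 48463132), and wildtype library 1 had 24 reads of the X-inactivation RNA Xist where the other libraries had 68540 to 132008. The part of sex in the Elf4 values was not tested. In library 1 Klf4 (-4.34) and Klf2 (-1.02) fell, and in library 2 their differences were 0.42 and -0.07. A link between Elf4 and these values was not tested.

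Etv5, a factor of the PEA3 group whose transcription follows ERK signalling, was the other large rise. It had 6.01 and 6.06 CPM in wildtype, then 178 CPM in library 1 and 8.20 CPM in library 2, or 121, 86, 2724 and 167 reads. The wildtype values were nearly equal, and library 1 was far above them. The rise in library 1 was 4.44 (SE 0.226, limma adjusted p = 2.45e-09), 26.7-fold in normalised reads with a counting interval of 23.1 to 30.9, and ranked 56 of 12617 genes. In library 2 the difference was 0.38 (95% interval -0.29 to 1.05, limma adjusted p = 0.587). Between the overexpression-labelled libraries Etv5 differed by 4.05 (SE 0.278, limma adjusted p = 1.12e-07).

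Feedback genes of the ERK pathway, which share with Etv5 their known response to ERK, were mostly higher in library 1, where most genes tested were called. Of 10 listed, 9 were tested, and 7 rose, 0 fell and 2 did not pass, with a median difference of 2.47. Spred1 rose by 3.41 (limma adjusted p = 3.28e-07), Spry1 by 3.26 (4.83e-06) and Spry2 by 3.25 (2.41e-05), all inhibitors of the pathway between receptor and RAF. Dusp6, the phosphatase that acts on ERK itself, rose by 2.47 (1.69e-08). Etv4, the PEA3 relative of Etv5, had 20, 6, 30 and 7 reads and did not pass (0.71, limma adjusted p = 0.175). In library 2, 0 of the 9 passed, with a median of -0.34.

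Etv6, a repressor needed in blood stem cells and a partner in leukaemic fusions, was the steadiest member. It had 45.9 and 45.4 CPM in wildtype, then 53.2 CPM in library 1 and 45.1 CPM in library 2. The library 1 difference was 0.07 (95% interval -0.30 to 0.44, limma adjusted p = 0.736) and the library 2 interval ran from -0.38 to 0.38 (0.993). Of 6 genes of its co-repressor machinery, 2 rose in library 1 and 3 fell, with a median of -0.26. Hdac3 rose by 1.42 (limma adjusted p = 0.000419) and Sin3a by 0.44 (0.0275). L3mbtl1, with 84 and 82 reads in wildtype and 0 in library 1, had a level at least 27.3-fold lower, with 3 reads as the floor. In library 2, 0 of the 6 passed.

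Elk3, a ternary complex factor that joins serum response factor (SRF) on immediate early promoters, had 56.1 and 61.1 CPM in wildtype, then 40.2 CPM in library 1 and 60.3 CPM in library 2. Library 1 is below the rest, and library 2 lies next to the wildtype values. Elk3 fell in library 1 by 0.67 (SE 0.171, limma adjusted p = 0.00436), a call lost with no filter (0.0675). Its exons share 316 bases, 6.95% of the total, with Cdk17 on the other strand, and strand use in the counting is not given in the sources used here. Cdk17 had 2167 and 1480 reads in wildtype, 668 in library 1 and 2033 in library 2, so it too was lowest in library 1.

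Of 8 genes of the SRF module, 4 rose in library 1, 3 fell and Srf did not pass (0.15, limma adjusted p = 0.549), with a median of 0.57. Ier2 rose by 1.38 (limma adjusted p = 3.87e-05), Mkl2, an SRF coactivator, by 1.16 (6.53e-05) and Fos by 1.12 (0.00109). Egr2 fell (-3.84, 1.49e-08), as did Egr1 (-3.07, 3.95e-08) and Mcl1, a survival gene (-1.16, 4.30e-06). The immediate early genes of the list therefore went both ways. In library 2, 0 of the 8 passed.

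Gabpa, the DNA-binding subunit of GA-binding protein, had 106 and 96.9 CPM in wildtype, then 233 CPM in library 1 and 75.5 CPM in library 2. Library 1 is the highest and library 2 the lowest. Gabpa rose in library 1 by 1.04 (SE 0.143, limma adjusted p = 3.61e-05), 2.05-fold in normalised reads, and the libraries differed from each other by 1.44 (SE 0.169, limma adjusted p = 1.53e-05). In library 2 the difference was -0.41 (SE 0.155, limma adjusted p = 0.222). With no filter the adjusted p in library 1 was 0.0682. Its exons share 397 bases (6.98%) on the other strand with Atp5j, a subunit gene of ATP synthase that had 651 and 504 reads in wildtype, 3243 in library 1 and 1015 in library 2. Their reads cannot be told apart there without strand.

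The beta subunits of GABP and its known mitochondrial targets were mostly higher in library 1, where 5 of 7 rose and 2 fell with a median of 0.56. Gabpb2 rose by 0.87 (limma adjusted p = 0.000492) and Gabpb1 by 0.49 (0.0175). Tfb1m, a mitochondrial RNA methyltransferase gene, rose by 1.46 (0.0101) and Cox5b, a cytochrome oxidase subunit gene, by 1.00 (0.000974). The mitochondrial transcription factors Tfb2m (-0.62, 0.0235) and Tfam (-0.44, 0.0478) fell. In library 2, 0 of the 7 passed.

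Per kilobase of exon, the make-up of ETS expression in library 1 differed from that of the other libraries, while its sum was close to theirs. The 26 ETS genes in the files summed to 397 and 392 CPM per kb in wildtype, 409 in library 1 and 356 in library 2. Exon lengths are from GENCODE M21, and the annotation behind the authors' counts is not given in the sources used here. Ets1 held 21.0% and 22.5% of the ETS sum in wildtype, 7.76% in library 1 and 17.2% in library 2. Erg held 0.0289% and 0.0673% in wildtype, 15.3% in library 1 and 0.0319% in library 2. Etv5 held 0.369% and 0.376% in wildtype, 10.6% in library 1 and 0.562% in library 2. The 10 members together made up 63.4% in each wildtype library, 80.4% in library 1 and 55.6% in library 2. These shares are descriptions without a test, of members chosen with earlier results of these data known.

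In wildtype the order of the members by mean CPM per kb ran from Ets1 (85.7) through Fli1 (46.0), Elf1 (30.9), Elf4 (29.1), Ets2 (18.5), Gabpa (17.9), Elk3 (12.9), Etv6 (7.63) and Etv5 (1.47) to Erg (0.189). The ranges of the wildtype libraries overlapped for Elf1 and Elf4 and for Ets2 and Gabpa, and did not overlap for the other neighbours. In library 1 Erg was first with 62.7 CPM per kb, followed by Elf1 (58.7), Etv5 (43.4) and Gabpa (40.9), and Ets1 was at 31.7. In library 2 Ets1 was first with 61.3 CPM per kb and Erg last with 0.113.

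**Figure D3:**
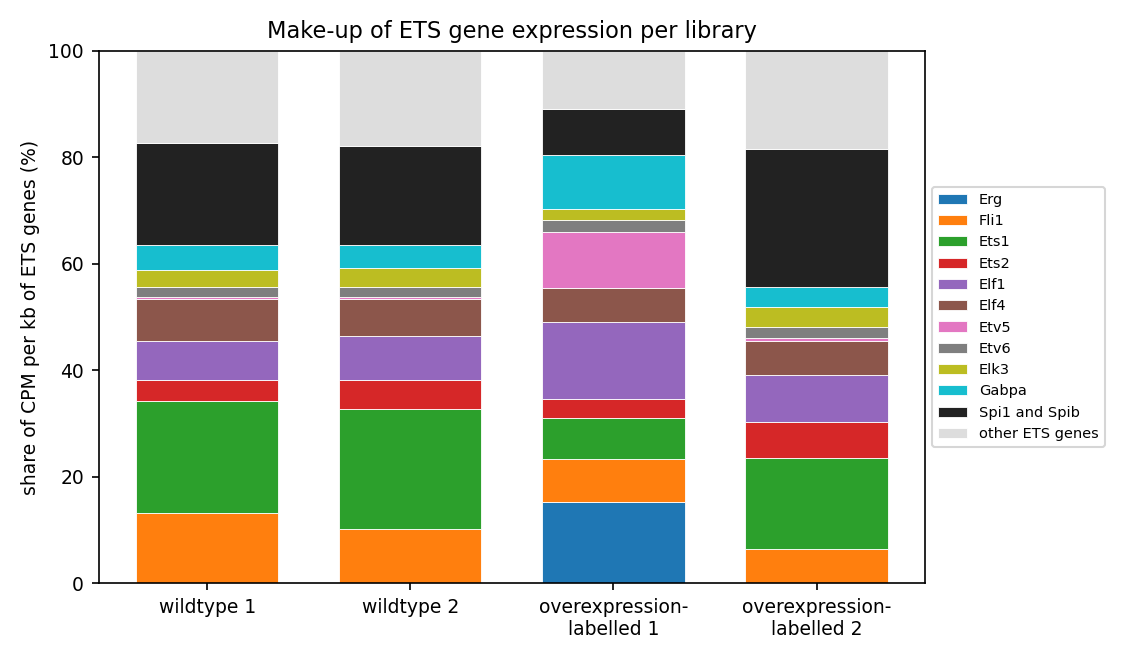
Share of each ETS gene (vertical axis, percent) in the summed CPM per kb of the 26 ETS genes, 1 bar per library. Ets1 takes 21.0% and 22.5% of the wildtype bars and 7.76% of the bar of overexpression-labelled library 1, where Erg takes 15.3% and Etv5 10.6%.

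ETS genes outside the members were lower or did not pass in library 1. Of 15 listed, 14 were in the files and 8 were tested, and 0 rose, 5 fell and 3 did not pass, with a median of -0.64. Spic, a macrophage and B-cell relative of PU.1, had 80 and 66 reads in wildtype and 0 in library 1, a level at least 24.0-fold lower, with 3 reads as the floor. Etv3, a repressor (-2.34, limma adjusted p = 1.87e-07), and Ehf, an epithelial factor (-1.58, 0.00478), fell. Spib, the lymphoid PU.1 relative (-1.68, 7.69e-07), and Spi1, which encodes PU.1 (-0.46, 0.0325), fell too. In library 2, 0 of the 8 and 0 of the PU.1 pair passed.

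The heptad is a set of stem cell factors that includes Erg and Fli1 and binds shared sites in blood progenitors. Of its other 5 genes, 3 were tested in library 1: Runx1 rose by 0.91 (limma adjusted p = 7.34e-05), Lmo2 fell (-1.82, 2.93e-06) and Lyl1 did not pass (0.08, 0.749). Tal1 had 161 reads in library 1, 0 in each wildtype library and 5 in library 2, and was not tested. Gata2 had 0 reads in library 1, 1 and 12 in wildtype and 0 in library 2. The tested partners of Erg thus went in different directions.

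B-lineage genes known as targets of ETS factors went both ways in library 1, where 3 of 8 tested rose and 5 fell, with a median of -1.16. Il7r, which encodes the interleukin-7 receptor chain that GABP activates, rose by 5.51 (limma adjusted p = 1.09e-08), Pax5 by 0.96 (3.07e-05) and Ebf1 by 0.50 (0.00208). Klf4 fell as given above, and so did Blk, a B-cell kinase (-2.95, 1.45e-08), and Prdm1, a plasma cell regulator (-1.33, 4.87e-05). The recombinase genes Rag1 and Rag2 counted 4328 and 993 reads in library 1, and the surrogate light chain genes Igll1 and Vpreb1 counted 36095 and 9765. With at most 5 reads in any other library these genes were not tested. In library 2, 0 of the 8 passed.

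**Figure D4:**
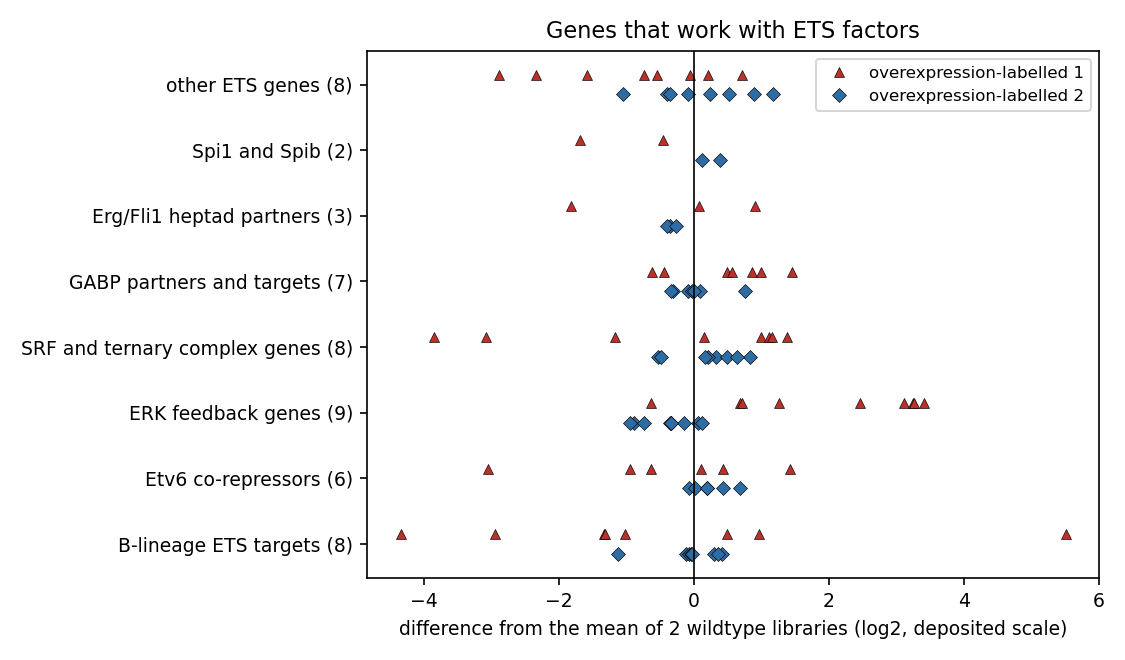
Difference from the wildtype mean (horizontal axis, deposited log2 scale) of each tested gene of 8 lists linked to ETS factors, with the number tested in parentheses and 1 point per gene and library. In overexpression-labelled library 1 the ERK feedback genes lie mostly to the right (7 of 9 rose) and the other ETS genes to the left (5 of 8 fell). Among the points of library 2, 0 passed the test.

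Markers of later B cells and of granulocytes also differed between libraries. The 11 mature B-cell markers in the files summed to 24380.4 and 25411 CPM in wildtype, 549 CPM in library 1 and 23184 CPM in library 2, and 10 of 11 fell in library 1. The 10 neutrophil markers summed to 7.15 and 101 CPM in wildtype, 136 CPM in library 1 and 1466 CPM in library 2. Of the 9 tested, 9 rose in library 2 and 4 in library 1, where S100a8 rose by 1.97 (limma adjusted p = 0.0231), and 0 fell in either. The 7 monocyte markers in the files summed to 43.7 and 51.3 CPM in wildtype, 72.3 CPM in library 1 and 219 CPM in library 2. Lyz2 alone gave 199 CPM of the library 2 sum, against 17.0 and 33.6 CPM in wildtype. Csf1r, Ccr2 and Adgre1 were lower in library 2 than in both wildtype libraries, Cd14 and F13a1 were higher, and Ly6c2 lay between them. In library 1, 1 of the 7 rose and 3 fell. F13a1, the gene of a coagulation factor subunit, rose by 4.77 (limma adjusted p = 2.37e-07), from 3 and 4 reads in wildtype to 574, and gave 37.6 CPM of the sum, while Adgre1 was at 0 reads. The part of these cells in the ETS values was not tested.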

How the data were processed

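STAR, HTSeq and DESeq2 and the build mm10 are named in the submitters' processing notes, and versions, settings and annotation are not given in the sources used here. The log2 values that the authors deposited have a floor of 4.949 for genes without reads and the form of a variance stabilizing transformation. Inverting it gave normalised reads and, after a size factor per library (0.5019, 0.3618, 0.4263 and 0.5079), whole reads for 100% of values within 0.01. The label of wildtype library 2 spells its genotype wrongly, and the header of the file of overexpression-labelled library 1 departs from its title in a digit; both were read as slips.

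The filter asked for 15 reads over all libraries and, in 2 or more of them, a CPM that equals 10 reads in a library of median size. Tests were two-sided limma-trend fits (limma 3.58.1, R 4.3.3) on the deposited values over all 12617 genes kept, with Benjamini-Hochberg adjustment and a threshold of 0.05. Groups were compared, each overexpression-labelled library was set against wildtype, and both were set against each other in a fit of 3 levels. Folds are ratios of normalised reads, and differences are on the deposited log2 scale, which understates changes of low genes. Exon lengths and positions are from GENCODE M21 (GRCm38), and promoters from RefSeq (GRCm38.p6). The fits were run on simulated reads with known changes and a set spread. This checked that differences followed the known changes, and not the calls in these libraries. All 10 members are described, with up to 3 leading called genes each way from each related list and the 5 genes nearest to Erg. Dusp6, Etv4, Srf, Gabpb1, Klf2, Lyl1, Atp5j, Cdk17, Wbp4, Xist and the untested genes were named after their values were seen. The same holds for Csf1r, Ccr2, Cd14, Ly6c2, Lyz2, Itga2b, Dntt, Klrb1c, Cd3d and Cd8a. The members and lists were chosen with earlier results of these data known. Of the cell type markers listed, 2 are not reported here.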

Additional observations from a re-analysis of the deposited data

How the results depend on the processing

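No paired analysis was possible because the labels give the libraries no replicate numbers shared between groups. Leaving out each library in turn, the number of genes called between groups ran from 0 to 7721, with 0 in every other alternative. It was 1 without wildtype library 2, 209 without overexpression-labelled library 1 and 7721 without overexpression-labelled library 2. With no filter on low counts 2642 genes were called in library 1, 0 in library 2 and 2486 between these libraries. In library 2 the count was 56 on log2 of normalised reads plus 0.5, 431 with library totals, 422 with totals without Rn45s and 614 by limma-voom. Library totals shifted the median difference of all genes in library 1 from -0.15 to -0.03, and totals without Rn45s to 0.03, and the direction of every member in library 1 held with these and with log2 of normalised reads plus 0.5.

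Leaving out each library, the difference between groups ran from -0.24 to 6.74 for Erg, from -0.49 to 0.38 for Ets2, from -0.0039 to 0.07 for Etv6, from -0.67 to 0.05 for Elk3 and from -0.41 to 1.04 for Gabpa. Each of these turned its sign without overexpression-labelled library 1, and Ets2 also did with library totals (0.01), totals without Rn45s (0.04) and without wildtype library 2 (0.16). None of these was called over both groups. Erg was not tested with 5 CPM in 2 libraries, since 1 library reached it. Between the overexpression-labelled libraries, the calls of Ets2, Elf1, Elk3 and Gabpa were lost with no filter on low counts. Fli1 was called between them with library totals and with totals without Rn45s. Where 1 overexpression-labelled library was set against a single wildtype library no test was possible, and no member called in that library turned its direction. Wildtype reads of Erg, 8 and 13, limit the size of its fold but not its direction.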
